A study of Mus musculus with 24 samples.

Results

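The livers of hepatocyte NRF2 knockout mice and of their floxed littermates were compared under one diet, dietary methionine restriction (MR). All genes of the count table were considered, in 6 NRF2 KO mice and 5 WT mice on MR, which are 11 of the 24 mice sequenced. The WT mice carried the floxed allele without Cre (NRF2fl/fl in the labels). The NRF2 KO mice (NRF2fl/(alb)) carried it with Cre recombinase under the albumin promoter, which is active in hepatocytes, so other liver cells keep an intact gene. All animals were males with a labelled age of 5 months. They began the diets at 8 weeks of age and ate them for 8 weeks. Calorimetry and a recovery period came before they were killed after a 4 h fast, and the stated times do not add up exactly to the labelled age. The MR diet held 0.17% methionine and the control (Con) diet 0.86%, both with elemental amino acids, and both lacked cysteine. A sixth WT mouse on MR, WT_MR_7612, was left out because the study set it aside as an outlier, and its values are given where they matter. The 6 NRF2 KO and 5 WT mice on Con used for comparison likewise leave out 1 WT mouse, WT_CON_7604. A second library of WT Con, labelled WT_Con_7607, went against its genotype label in Nfe2l2 tags and in several genes that were low in the knockouts. Con results include it, and the main counts of calls and the calls that change are also given without it.

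NRF2, encoded by Nfe2l2, is a transcription factor that KEAP1 holds in the cytoplasm and presents for degradation. Electrophiles and oxidants modify KEAP1, and the NRF2 that escapes enters the nucleus, pairs with a small MAF protein and binds the antioxidant response element upstream of its target genes. Those targets make and use glutathione and NADPH, reduce quinones and carbonyls, conjugate and export foreign compounds, and store iron. Methionine is the liver's source of cysteine when the diet holds none, and cysteine limits glutathione synthesis. The comparison asks what the liver transcriptome of methionine-restricted mice looks like when hepatocytes lack this factor.

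Each mouse gave 1 library of QuantSeq tags, which are read from the 3′ end of each transcript, so that levels are given as CPM (counts scaled to the library total after TMM normalisation) with no correction for length. The NRF2 KO MR libraries held 11909252 to 21776490 counts (median 16173154.5) and the 5 WT MR libraries 6197291 to 19334986 (median 11538109). Among the 12 mice on MR, WT_MR_7612 included, the first principal component took 28.7% of the variance and set WT_MR_7612 apart at a score of 40.17, against -19.6 to 14.22 in the others. The second component took 21% and separated the genotypes, with scores of 8.15 to 21.64 in the WT mice and -16.69 to -8.359 in the NRF2 KO mice. Hepatocyte markers were high in every mouse: the 10 markers summed to 77958 to 94751 CPM in the WT MR mice and 98742 to 120640 CPM in the NRF2 KO MR mice. Albumin (Alb) itself was at 52240 to 63728 CPM in WT MR and 65957 to 85872 CPM in NRF2 KO MR (log2 fold change 0.35, SE 0.10, adjusted p = 0.074), and the apolipoprotein gene Apoa1 rose (log2 fold change 0.50, SE 0.093, adjusted p = 0.0025). In bulk liver, fewer cells of a type and less RNA per cell cannot be told apart.

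Of 13336 genes tested, 258 (1.93%) differed at an adjusted p under 0.05 (Benjamini-Hochberg adjustment of edgeR's quasi-likelihood test). Of these, 184 (1.38%) were lower in NRF2 KO and 74 (0.555%) were higher. A log2 fold change of at least 1 was reached by 59 of the 184 falls (0.442% of genes tested) and by 24 of the 74 rises (0.18%). The median absolute log2 fold change of the 258 genes was 0.68, while the median log2 fold change over all genes tested was 0.0047. In 221 of them every NRF2 KO MR mouse lay on one side of every WT MR mouse, 162 below and 59 above, and 613 of all genes tested (4.6%) were separated in this way. DESeq2 called 257 of the 258 genes, and 195 kept their call when the 2 mice left out were put back. The call held in each of 11 fits without 1 of the MR mice for 157 genes, and the count of genes called was lowest, 191, without WT_MR_7613. Of those 191, 146 were lower and 45 higher.

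**Figure D1:**
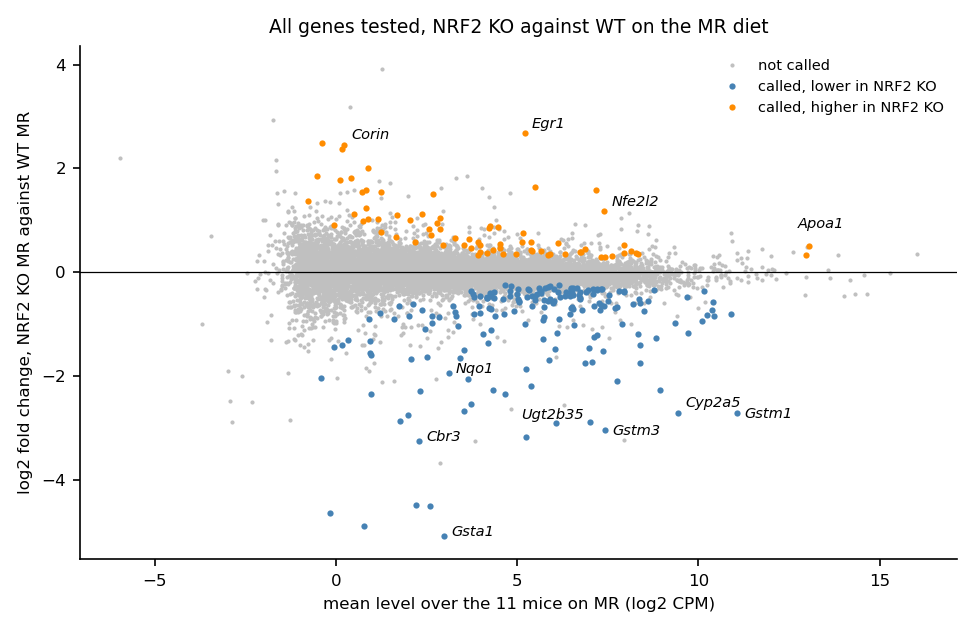
Each point is 1 of 13336 genes, placed by its mean level over the 11 mice on MR (log2 CPM) and by its log2 fold change in NRF2 KO MR against WT MR. Blue points are the 184 genes called lower, orange points the 74 called higher, and the lowest blue points, among them Gsta1 and Gstm1, lie farther from 0 than most orange ones.

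Nfe2l2 itself (chr2:75675513-75704641, minus strand, GRCm38) was counted at 107, 101, 102, 94.03 and 97.05 CPM in WT_MR_7609, WT_MR_7611, WT_MR_7613, WT_MR_7615 and WT_MR_7616, an order kept throughout. In NRF2 KO MR it was counted at 202 to 249 CPM with a median of 228. Every knockout was thus above every WT mouse (log2 fold change 1.18, SE 0.22, adjusted p = 0.0035), which is the opposite direction from a loss of transcript. The tags are read near the 3′ end of the mRNA, and where they lie relative to the part that Cre removes was not measured here, so they do not check the deletion. By PCR with primers for the deleted exon, the study reported lower hepatic Nfe2l2 mRNA in NRF2 KO than in WT mice. That pair of primers is shown because it marks where the study assayed the deletion, printed 5′ to 3′. They matched the transcript Nfe2l2-201 (2475 bases) from base 1297 to base 1578, a product of 282 bases that ends 897 bases before the 3′ end.
Nfe2l2 forward primer: ccatttacggagacccaccgcctg
Nfe2l2 reverse primer: ctcgtgtgagatgagcctctaagcgg
Among 16 tested partners and repressors of NRF2, Nfe2l2 was the 1 gene called. Keap1, the repressor, was at 94.9 to 104 CPM in WT MR and 79.8 to 99.7 CPM in NRF2 KO MR, and Sqstm1, the autophagy adaptor that binds KEAP1, at 265 to 348 CPM and 259 to 308 CPM (adjusted p = 0.59 and 0.72).

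The antioxidant response element is commonly written TGACNNNGC, and the fully specified form TGACTCAGC was searched on both strands in RefSeq promoters of GRCm38.p6, from 250 bases before to 50 after each start site. It is 1 of the words that TGACNNNGC covers. TGACTCAGC stood in 149 of 32851 promoters (0.454%). Of the 139 genes called lower with a matched promoter, 8 (5.76%) held it, of 50 called higher 0, and of 9747 tested but not called 44 (0.451%). TGACNNNGC stood in 31 of the 139 (22.3%), in 8 of the 50 (16%), in 1622 of the 9747 not called (16.6%) and in 12.4% of all promoters. Other forms of the element, differing in length or in fixed letters, were also searched. They stood in 7.91%, 56.1% and 7.19% of matched genes called lower, against 3.28%, 47.6% and 1.26% of those not called. Of the words searched, TGACTCAGC had the largest excess in proportion, so its share is a description and no test. The 8 genes with TGACTCAGC were chosen for this word after their values were seen. Their letters at N are the same because the word was searched whole. The word is shown in capitals, on the strand that holds it, with 10 bases to each side.
Pir: tttgggggagTGACTCAGCctctctatgc
Htatip2: gtctgagctgTGACTCAGCacttccctag
Hfe: acagcaatccTGACTCAGCagtggctcca
Ikbkg: ggggcaactgTGACTCAGCagaccagtcc
Epb41l1: tcagaagaggTGACTCAGCctctgtgggc
Tbcel: gaagtcagcaTGACTCAGCaagattaggt
Acox2: aactctggcaTGACTCAGCttccaggctt
C1qbp: ggggaggcctTGACTCAGCtaccttgacc
The windows lie at chrX:164269207-164269235 (minus strand, centred 210 bases upstream of the start), chr7:49759453-49759481 (plus, 45), chr13:23710903-23710931 (minus, 63), chrX:74424564-74424592 (minus, 34), chr2:156475450-156475478 (minus, 70), chr9:42461487-42461515 (minus, 73), chr14:8259014-8259042 (plus, 9) and chr11:70983116-70983144 (plus, 104). Other genes of the antioxidant and conjugation lists that fell hold TGACNNNGC with other letters at N.
Gclm: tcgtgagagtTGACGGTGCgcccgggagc
Txnrd1: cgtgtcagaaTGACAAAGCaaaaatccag
Ugdh: gcggagcccgTGACTTAGCtggagctgat
Mgst1: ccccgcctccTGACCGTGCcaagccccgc
Slc35d1: ggcccttcccTGACCCCGCgaggcaccat
These windows lie at chr3:122245413-122245441 (minus, 130 bases upstream), chr10:82859104-82859132 (minus, 88), chr5:65435956-65435984 (minus, 128), chr6:138140461-138140489 (minus, 52) and chr4:103215259-103215287 (minus, 97). A match of letters is a description of the promoter and no measurement of binding.

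Among the genes with TGACTCAGC, Pir, which encodes the iron-containing protein pirin, was at 29.01, 32.6, 37.4, 29.7 and 34.5 CPM in WT MR and 12.96 to 26.5 CPM with a median of 17.8 in NRF2 KO MR. The groups did not overlap (log2 fold change -0.82, SE 0.16, adjusted p = 0.0063). Htatip2, an oxidoreductase of the short-chain family, was at 115, 83.2, 110.1, 88.8 and 74.3 CPM and 20.9 to 36.9 CPM with a median of 30.2, again without overlap (log2 fold change -1.70, SE 0.19, adjusted p = 9.2e-06). Hfe, which encodes the hereditary hemochromatosis protein of iron sensing, had a log2 fold change of -0.75, SE 0.10, adjusted p = 5.3e-05. Ikbkg, the regulatory subunit of the IκB kinase, was lower by a similar margin (log2 fold change -0.55, SE 0.11, adjusted p = 0.0040). Tbcel and the mitochondrial matrix protein gene C1qbp were also separated by genotype (log2 fold changes -0.72 with adjusted p = 0.0043 and -0.33 with adjusted p = 0.0055). Acox2, an oxidase of bile acid side-chain shortening, fell (log2 fold change -0.52, SE 0.12, adjusted p = 0.014), a call lost without WT_MR_7613 (adjusted p = 0.051). Epb41l1 had the highest adjusted p of the 8 and overlapping groups (log2 fold change -1.20, SE 0.28, adjusted p = 0.025). Its call was lost without WT_MR_7611, WT_MR_7613, WT_MR_7616, KO_MR_7625, KO_MR_7629, KO_MR_7631 or KO_MR_7632 (adjusted p up to 0.084), and with all 24 mice (log2 fold change -1.05 with adjusted p = 0.058).

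The ligase that limits glutathione synthesis was among the clearest falls. Of 17 tested genes of glutathione synthesis and cystine uptake, 3 fell and 0 rose, and the list's median log2 fold change was -0.13 against 0.0047 for all genes. Among all genes 1.38% were called lower and 0.555% higher, the shares to set beside the counts of each list that follows. Gclc, the catalytic subunit of glutamate-cysteine ligase (chr9:77754535-77794485), was at 423, 514, 655, 437 and 483 CPM in WT MR and 159 to 216 CPM with a median of 193 in NRF2 KO MR. The highest knockout had less than the lowest WT mouse by a wide gap (log2 fold change -1.41, SE 0.18, adjusted p = 2.9e-05). Gclm, the modifier subunit, fell less, from a range of 253 to 303 CPM to one of 199 to 234 CPM (log2 fold change -0.39, SE 0.085, adjusted p = 0.011). Slc7a11, the cystine importer, was scarce and variable, at 16.3, 6.13, 9.60, 8.89 and 2.85 CPM in WT MR and 0.136 to 4.56 CPM with a median of 1.41 in NRF2 KO MR, with overlapping groups (log2 fold change -2.29, SE 0.47, adjusted p = 0.0095). The WT mouse left out, WT_MR_7612, had 132 CPM of Slc7a11, far above all others. With all 24 mice the values were -4.05 with adjusted p = 0.0498 for Slc7a11 and -0.32 with adjusted p = 0.089 for Gclm, and the fit of the 2 MR groups alone did not call Slc7a11 (adjusted p = 0.075). Gsr, which regenerates reduced glutathione, did not pass the test, at 34.7 to 45.9 CPM and 26.7 to 38.9 CPM (log2 fold change -0.31 with adjusted p = 0.10).

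Of 22 thioredoxin, peroxiredoxin and superoxide enzymes, 4 fell and 0 rose (list median -0.13). Txnrd1, the cytosolic thioredoxin reductase, had little spread, with 96.8, 92.2, 105, 83.8 and 95.4 CPM in WT MR and 45.99 to 52.1 CPM with a median of 51.8 in NRF2 KO MR. The knockouts lay close together and well below the lowest WT mouse (log2 fold change -0.90, SE 0.088, adjusted p = 6.2e-07). Srxn1, sulfiredoxin, which repairs over-oxidised peroxiredoxins, fell from a range of 83.8 to 116 CPM to one of 28.5 to 50.3 CPM (log2 fold change -1.16, SE 0.20, adjusted p = 0.0025). WT_MR_7612 had 316 CPM of Srxn1, and with all 24 mice the call was lost (log2 fold change -1.62 with adjusted p = 0.067). Cat, the peroxisomal catalase, was lower too, at 1334 to 2028 CPM against 836 to 1284 CPM (log2 fold change -0.72, SE 0.13, adjusted p = 0.0016). Txnrd3 fell with overlapping groups (log2 fold change -0.43, SE 0.10, adjusted p = 0.022). The Txnrd3 call was lost without WT_MR_7609, KO_MR_7627, KO_MR_7628 or KO_MR_7629 (adjusted p up to 0.096) and with all 24 mice (-0.37 with adjusted p = 0.065). Sod2, mitochondrial superoxide dismutase, was at 226 to 265 CPM in WT MR and 220.4 to 252 CPM in NRF2 KO MR, and Prdx1, chosen after its values were seen, had a log2 fold change of -0.25 with adjusted p = 0.15.

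**Figure D2:**
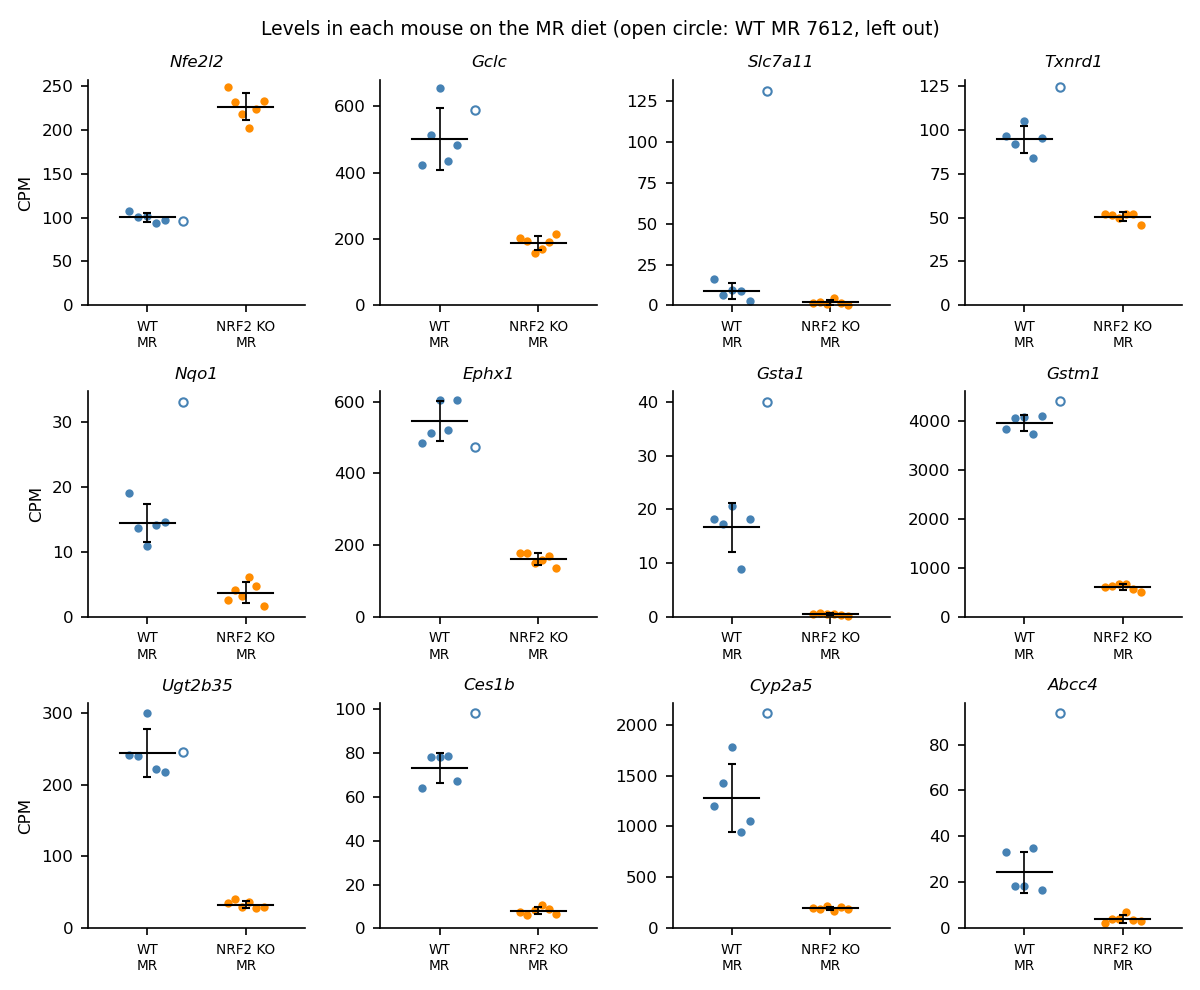
Each panel gives the level (CPM) of 1 gene in each mouse on MR, with WT MR in blue (n = 5) and NRF2 KO MR in orange (n = 6). Lines are means and error bars the SD, and the open circle is WT_MR_7612, which enters neither. Nfe2l2 tags sit higher in the knockouts, the other 11 genes sit lower, and in Slc7a11 the groups overlap.

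The quinone, carbonyl and epoxide enzymes were among the lists with most falls: 10 of 32 tested fell and 0 rose (median -0.28). Nqo1, the quinone reductase used as a standard readout of NRF2 activity, was at 19.1, 13.7, 10.98, 14.2 and 14.6 CPM in WT MR and 1.70 to 6.15 CPM with a median of 3.62 in NRF2 KO MR. No knockout reached the lowest WT mouse (log2 fold change -1.94, SE 0.28, adjusted p = 2.5e-04). WT_MR_7612 had 33.2 CPM, above the other WT mice. Ephx1, microsomal epoxide hydrolase, was at 486, 512, 605, 522 and 605 CPM and 136 to 179 CPM with a median of 164, a loss of a similar size in all 6 knockouts (log2 fold change -1.75, SE 0.18, adjusted p = 2.2e-06). Aox1, an aldehyde oxidase, was at 62.2, 75.5, 82.1, 65.4 and 79.2 CPM and 14.1 to 19 CPM with a median of 15.3 (log2 fold change -2.20, SE 0.27, adjusted p = 5.9e-05), and its relative Aox3 fell from a range of 175 to 265 CPM to one of 70.3 to 132 CPM (log2 fold change -1.21, SE 0.26, adjusted p = 0.012). Both oxidases were separated by genotype in every mouse.

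The carbonyl reductases varied more among the WT mice. Cbr3 was at 19.3, 3.64, 8.13, 10.7 and 5.87 CPM in WT MR and 0.618 to 1.54 CPM with a median of 0.889 in NRF2 KO MR (log2 fold change -3.25, SE 0.39, adjusted p = 1.8e-05), and Cbr1 fell from a range of 349 to 633 CPM to one of 171 to 255 CPM (log2 fold change -1.19, SE 0.22, adjusted p = 0.0036). The highest WT value of both was that of WT_MR_7609, and WT_MR_7612 was higher still, at 41.7 CPM of Cbr3 and 874 CPM of Cbr1. The aldo-keto reductases fell by less, with log2 fold changes of -0.64 with adjusted p = 6.6e-04 for the aflatoxin aldehyde reductase Akr7a5 and -0.51 with adjusted p = 5.0e-04 for Akr1a1, which also serves ascorbate synthesis. Aldh1a1, a retinal dehydrogenase, fell from a range of 748 to 1005 CPM to one of 371 to 588 CPM (log2 fold change -0.98, SE 0.14, adjusted p = 1.1e-04). Its close relative Aldh1a7 fell (log2 fold change -0.44, SE 0.11, adjusted p = 0.026), a call lost without WT_MR_7611, WT_MR_7613, WT_MR_7616, KO_MR_7625, KO_MR_7628 or KO_MR_7631 (adjusted p up to 0.088), and tags of these near-identical genes may be shared between them.

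Glutathione transferases, which attach glutathione to electrophiles, included the gene with the largest fall. Of 21 tested, 8 fell and 0 rose, with a list median of -0.51. Their summed level was 8844 to 10144 CPM in the WT MR mice and 3912 to 4526 CPM in the NRF2 KO MR mice, with the highest knockout far below the lowest WT mouse. Gsta1 (chr9:78230656-78242684) was at 18.3, 17.3, 20.7, 8.89 and 18.1 CPM in WT MR and 0.136 to 0.772 CPM with a median of 0.507 in NRF2 KO MR. Its loss was the largest of any gene that met the naming rule (log2 fold change -5.08, SE 0.57, adjusted p = 2.0e-05). Gsta2 was at 114, 146, 137, 94.2 and 139.8 CPM and 11.6 to 25.3 CPM with a median of 16.5 (log2 fold change -2.91, SE 0.36, adjusted p = 6.4e-05), and Gsta3 fell by less, from a range of 1487 to 1828 CPM to one of 1018 to 1195 CPM (log2 fold change -0.58, SE 0.11, adjusted p = 0.0047). With all 24 mice the Gsta3 call was lost (log2 fold change -0.50 with adjusted p = 0.065).

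Gstm1, the main mu-class transferase of mouse liver, was at 3844, 4068, 4074, 3727 and 4096 CPM in WT MR and 499 to 674 CPM with a median of 616 in NRF2 KO MR. The spread within either group was small beside the gap between them (log2 fold change -2.71, SE 0.24, adjusted p = 6.2e-07). Gstm3 was at 601, 277, 241, 334 and 189 CPM and 14.04 to 68.8 CPM with a median of 34.8 (log2 fold change -3.04, SE 0.52, adjusted p = 0.0025). Gstm4 fell from a range of 88.6 to 107 CPM to one of 23.2 to 41.2 CPM (log2 fold change -1.49, SE 0.17, adjusted p = 1.8e-05). The pi-class Gstp1 was at 32.1, 34.1, 51.4, 31.5 and 29.4 CPM and 5.23 to 13.6 CPM with a median of 6.41, without overlap (log2 fold change -2.28, SE 0.46, adjusted p = 0.0095). Mgst1, a membrane-bound transferase of the endoplasmic reticulum, fell from a range of 1567 to 2130 CPM to one of 857 to 1321 CPM (log2 fold change -0.84, SE 0.16, adjusted p = 0.0030). Mgst3 did not pass the test (9.34 to 26.1 CPM and 7.57 to 19.2 CPM, log2 fold change -0.57 with adjusted p = 0.27).

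Relatives of the same genes were among the largest falls. Gm10639, a gene of the alpha-class cluster (chr9:78289923-78305525), was at 4.38, 2.54, 4.50, 2.56 and 4.14 CPM in WT MR and gave 0 to 3 counts in the knockouts. Set against a floor of 3 counts in each knockout library, it was at least 20.3-fold lower in NRF2 KO MR. The pseudogene Gstp-ps fell (log2 fold change -2.76, SE 0.32, adjusted p = 1.0e-05). These tags are uncertain, since short 3′ reads of Gsta1, Gsta2 and Gm10639, of the mu-class genes, and of Gstp1 and its pseudogene can map to more than 1 of them.

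Glucuronidation, which couples drugs, bilirubin and steroids to glucuronic acid, showed falls in donor synthesis and in the transferases. Of 22 genes tested 8 fell and 0 rose, with a median of -0.56, and the list summed to 5605 to 6655 CPM in the WT MR mice and 3489 to 3806 CPM in the NRF2 KO MR mice. Ugdh, which makes UDP-glucuronic acid, was at 247, 261, 325, 214 and 239 CPM in WT MR and 65.5 to 109.8 CPM with a median of 88.4 in NRF2 KO MR (log2 fold change -1.53, SE 0.20, adjusted p = 8.5e-05). Slc35d1, which carries that donor into the endoplasmic reticulum, was at 357, 281, 348, 346 and 296 CPM and 148 to 183 CPM with a median of 163 (log2 fold change -0.99, SE 0.10, adjusted p = 2.1e-06). Both were lower in every knockout than in any WT mouse.

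The 5 transferases called all belong to the Ugt2b family, whose members are near-identical in parts. Ugt2b35 was at 241, 239.6, 300.1, 221 and 218 CPM in WT MR and 28.2 to 40.9 CPM with a median of 31.9 in NRF2 KO MR (log2 fold change -2.89, SE 0.31, adjusted p = 1.3e-05). Ugt2b5 fell from a range of 705 to 1116 CPM to one of 149.6 to 225 CPM (log2 fold change -2.27, SE 0.26, adjusted p = 2.4e-05). Ugt2b1 fell from a range of 341 to 438 CPM to one of 73.4 to 113 CPM (log2 fold change -2.09, SE 0.23, adjusted p = 1.3e-05). In all 3 the highest WT value was that of WT_MR_7613 and the groups were well apart. Ugt2b36 and Ugt2b34 fell by less (log2 fold changes -1.27 with adjusted p = 2.2e-06 and -0.76 with adjusted p = 2.4e-05), and the processed pseudogene Gm18635 fell (log2 fold change -4.48, SE 0.44, adjusted p = 2.1e-06).

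Carboxylesterases, which hydrolyse esters of drugs and lipids, fell in 4 of 12 cases and rose in 0 (median -0.28, and -0.18 without KO_MR_7631). Ces1b was at 64, 78.3, 78.1, 78.5 and 67.4 CPM in WT MR and 6.10 to 10.6 CPM with a median of 7.93 in NRF2 KO MR (log2 fold change -3.18, SE 0.33, adjusted p = 9.2e-06). Ces1g, an esterase also known for its part in lipid handling, fell from a range of 185 to 249 CPM to one of 46.6 to 73.5 CPM (log2 fold change -1.73, SE 0.27, adjusted p = 7.8e-04), and Ces1f from a range of 153 to 214 CPM to one of 44.9 to 95.1 CPM (log2 fold change -1.75, SE 0.26, adjusted p = 4.2e-04). Those 3 were separated by genotype in every mouse. Ces2e was lower with overlapping groups (log2 fold change -0.60, SE 0.13, adjusted p = 0.0081), and with all 24 mice its call was lost (log2 fold change -0.52 with adjusted p = 0.051).

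Of 54 tested xenobiotic receptors, P450s and their partners, 2 fell and 0 rose, beside 1.38% called lower among all genes, and the median was 0.029. The fit of the MR groups alone called 6 lower and 3 higher, and DESeq2 4 lower and 1 higher. Cyp2a5, the coumarin 7-hydroxylase, was at 1198, 1423, 1777, 947 and 1054 CPM in WT MR and 172 to 217 CPM with a median of 197 in NRF2 KO MR. Its level in WT_MR_7612 was 2115 CPM. The groups were far apart (log2 fold change -2.71, SE 0.33, adjusted p = 5.3e-05), although tags of Cyp2a5 and its close relative Cyp2a4 may not be told apart. Cyb5b, the cytochrome b5 of the outer mitochondrial membrane, fell from a range of 322 to 486 CPM to one of 259.9 to 279.8 CPM (log2 fold change -0.59, SE 0.11, adjusted p = 0.0028), and the call was lost with all 24 mice (log2 fold change -0.47 with adjusted p = 0.15).

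Among 21 drug and bile salt transporters 4 fell and 0 rose (median -0.11, and -0.010 with all 24 mice). Abcc3, which exports glucuronides to the blood side of the hepatocyte, was at 47.5, 38.9, 39.2, 51.1 and 50.9 CPM in WT MR and 7.17 to 10.6 CPM with a median of 9.08 in NRF2 KO MR (log2 fold change -2.35, SE 0.32, adjusted p = 2.5e-04). Abcc4, another basolateral exporter (chr14:118482692-118706219), was at 33.3, 18.4, 18.5, 34.96 and 16.7 CPM and 2.13 to 7.07 CPM with a median of 3.93 (log2 fold change -2.55, SE 0.23, adjusted p = 6.2e-07). The canalicular exporter Abcg2 was at 63.7, 69.1, 81.6, 64.5 and 73.4 CPM and 35.2 to 43.5 CPM with a median of 38.6 (log2 fold change -0.87, SE 0.082, adjusted p = 6.2e-07). No WT mouse overlapped a knockout in any of the 3.

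Of 15 pentose phosphate and NADPH-producing enzymes, Tkt, transketolase, was the 1 that fell and 0 rose (median -0.22). Among all genes 1.38% were called lower, and the other fits called up to 4 list members lower. Tkt was at 135, 131, 111, 127 and 151 CPM in WT MR and 54.3 to 75.7 CPM with a median of 61.95 in NRF2 KO MR, with no overlap (log2 fold change -1.02, SE 0.16, adjusted p = 7.7e-04). Other enzymes widely listed as NRF2 targets, looked up after their values were seen, did not pass the test: the log2 fold changes were -0.59 with adjusted p = 0.21 for malic enzyme (Me1), -0.35 with adjusted p = 0.21 for Pgd, and 0.35 with adjusted p = 0.55 for G6pdx, which was counted at no more than 2.78 CPM in the 11 mice.

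Of 23 genes of heme breakdown and iron handling, 4 fell and 1 rose (median -0.07, but 0.013 without KO_MR_7627 and 0.0042 without KO_MR_7628). Both ferritin subunits, which store iron, fell. Fth1 was at 2666, 2403, 2696, 2184 and 2420.3 CPM in WT MR and 1293 to 1579.5 CPM with a median of 1403 in NRF2 KO MR (log2 fold change -0.80, SE 0.11, adjusted p = 8.2e-05), and Ftl1 at 1347, 1444, 1820.1, 1258 and 1483 CPM and 684 to 888 CPM with a median of 764 (log2 fold change -0.94, SE 0.17, adjusted p = 0.0028). Slc40a1, the iron exporter ferroportin, fell from a range of 139.7 to 207 CPM to one of 98.5 to 119.7 CPM (log2 fold change -0.65, SE 0.11, adjusted p = 0.0012), and Blvrb, a biliverdin reductase, from a range of 207 to 237 CPM to one of 138 to 169 CPM (log2 fold change -0.56, SE 0.10, adjusted p = 0.0016). In each of the 4 genes all knockouts lay below all WT mice. Trf, transferrin, rose from a range of 6546 to 7643 CPM to one of 7888 to 9276 CPM (log2 fold change 0.33, SE 0.079, adjusted p = 0.024), and that call was lost without WT_MR_7613, WT_MR_7615, WT_MR_7616, KO_MR_7625, KO_MR_7627 or KO_MR_7628 (adjusted p up to 0.090). Hmox1, heme oxygenase 1, chosen after its values were seen, was at 6.74 to 13.3 CPM and 8.68 to 13.1 CPM (log2 fold change 0.14 with adjusted p = 0.84).

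The 10 lists from glutathione synthesis to iron handling hold 271 genes, of which 236 were tested and 47 were called lower. That is 19.9% of the members tested, beside 1.38% called lower among all genes, and 25.5% of all 184 falls. The groups did not overlap in 44 of the 47, beside 162 of all 184 genes called lower. DESeq2 called all 47, beside 257 of all 258 genes called. With all 24 mice 43 members were called lower, beside 167 of all genes tested. Trf was the 1 member called higher. The members were chosen with these results known, so the shares describe the lists and are no test of them.

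**Figure D3:**
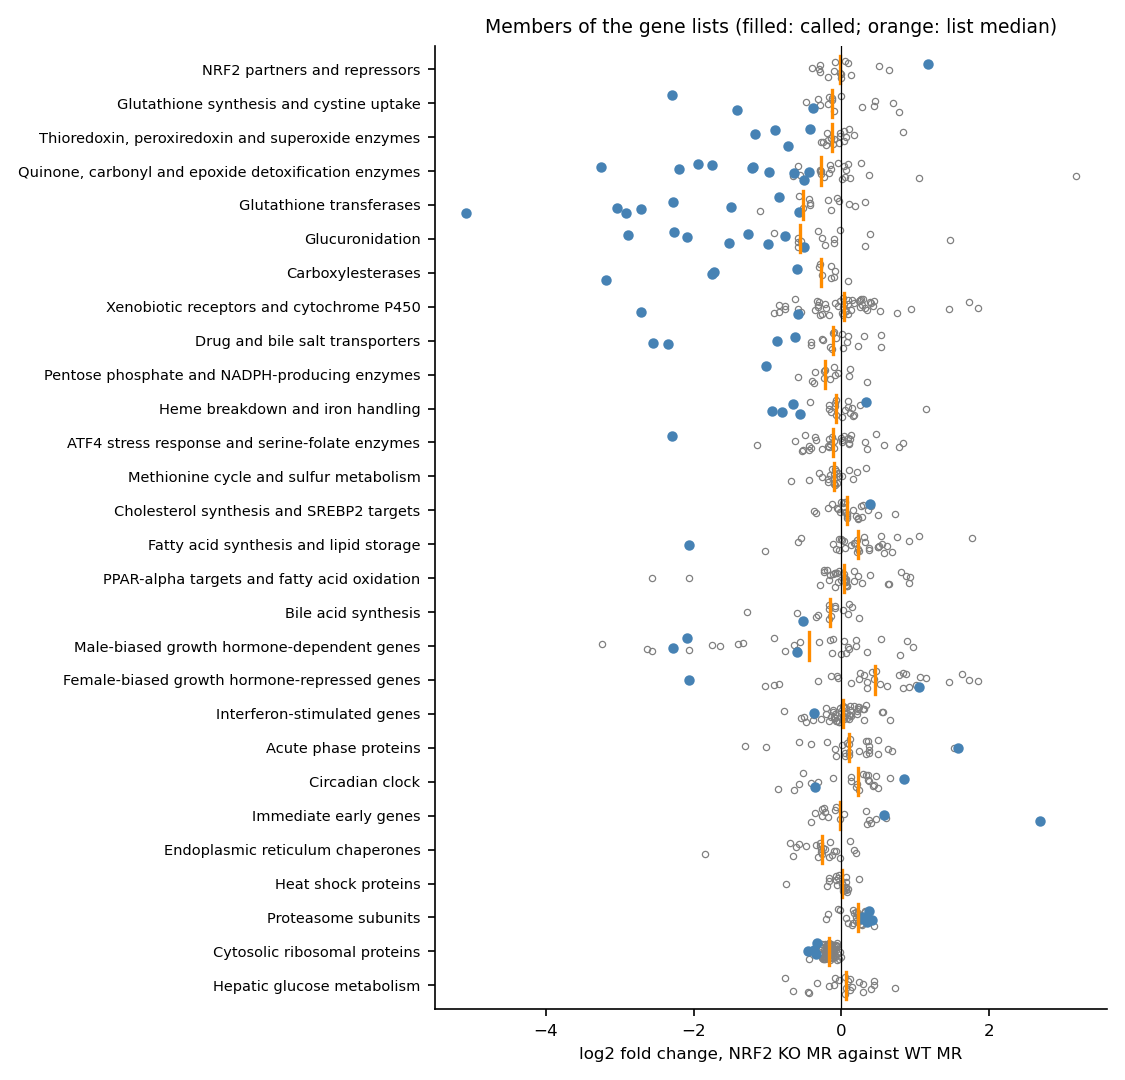
Each row is a list of genes and each circle a member, placed by its log2 fold change in NRF2 KO MR against WT MR. Filled circles are called genes and the orange bar is the list's median. The medians of the glutathione transferases (-0.51) and the glucuronidation genes (-0.56) lie farthest below 0, and the 82 ribosomal protein genes all lie below 0 by small amounts.

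ATF4 is the transcription factor through which cells respond to scarce amino acids. Of 34 ATF4 and serine-folate genes, Slc7a11 was the 1 called, beside 1.38% called lower among all genes, while the other fits called up to 3 lower and 1 higher. The list's median was -0.11, and it ran from -0.21 without KO_MR_7631 to -0.031 without KO_MR_7627. Asns, asparagine synthetase, was at 80, 73.1, 93.6, 83.3 and 81.6 CPM in WT MR and 46.3 to 76.96 CPM with a median of 60.2 in NRF2 KO MR (log2 fold change -0.44, SE 0.19, adjusted p = 0.29). Trib3, a pseudokinase induced by ATF4, was at 24.7 to 39.04 CPM and 16.3 to 28.1 CPM (log2 fold change -0.49 with adjusted p = 0.16), and Atf4 itself at 220.4 to 318 CPM and 194 to 233 CPM (-0.26 with adjusted p = 0.17). Psat1, of serine synthesis, was at 30.8 to 43.8 CPM in WT MR and 18.2 to 26.3 CPM in NRF2 KO MR without overlap, yet missed the threshold (log2 fold change -0.63, SE 0.19, adjusted p = 0.087). It passed in the fit of the MR groups alone (adjusted p = 0.0054) and by DESeq2 (adjusted p = 0.039). Fgf21, the hormone that the liver secretes under MR, varied over overlapping ranges, at 68.5, 16.7, 25.2, 20.8 and 24.4 CPM and 9.29 to 63.4 CPM with a median of 21.4 (log2 fold change -0.15, SE 0.52, adjusted p = 0.95).

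None of 23 methionine cycle and sulfur metabolism genes was called by edgeR (median -0.095), 1 had an unadjusted p under 0.05, DESeq2 called 0, and the alternative fits called at most 1 higher and 2 lower. Mat1a, the liver's S-adenosylmethionine synthetase, was at 3506, 2582, 2774, 3465 and 3208 CPM in WT MR and 2759.6 to 3614 CPM with a median of 2985 in NRF2 KO MR (log2 fold change -0.034, SE 0.15, adjusted p = 0.96). Of 24 endoplasmic reticulum chaperones edgeR called 0, although 13 had an unadjusted p under 0.05 and DESeq2 called 2 lower (median -0.26; at most 2 lower in the alternative fits), with Hspa5 at 759 to 1141 CPM and 619 to 937 CPM. Xbp1, a regulator of that response, had a log2 fold change of 0.12 with adjusted p = 0.73.

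Calls among lipid genes depended on the fit, and among all genes 1.38% were called lower and 0.555% higher. Scap, the escort protein of the sterol-sensing transcription factors, was the 1 call among 27 cholesterol genes, rising from a range of 83.4 to 100.04 CPM to one of 109.9 to 127 CPM (log2 fold change 0.39, SE 0.084, adjusted p = 0.0099, list median 0.076). Fitm1, of lipid droplet formation, was the 1 call among 35 genes of fatty acid synthesis and storage (list median 0.23). It was at 13.1, 24.6, 23.7, 17.3 and 28.4 CPM in WT MR and 2.39 to 10.2 CPM with a median of 4.52 in NRF2 KO MR, a fall without overlap (log2 fold change -2.06, SE 0.37, adjusted p = 0.0031). Other fits called rises in that list as well, 2 with all 24 mice or with scaling by library size, 3 with DESeq2, 4 in the fit of the MR groups alone or with the 12 MR mice only, and 1 without WT_MR_7611. The mouse left out, WT_MR_7612, had 4.70 CPM of Fitm1, within the knockouts' range. None of 37 PPAR-alpha targets was called by edgeR, 6 had an unadjusted p under 0.05, and DESeq2 called 1 lower (median 0.035; at most 1 lower in the alternative fits). Its members Cyp4a14, a fatty acid hydroxylase, Vldlr, a lipoprotein receptor, and Fabp1, the fatty acid binding protein, had log2 fold changes of 0.03 with adjusted p = 0.99, 0.46 with adjusted p = 0.63 and 0.39 with adjusted p = 0.30. Acox2 was the 1 call among 16 bile acid synthesis genes (median -0.16).

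Genes of sex-specific growth hormone signalling varied widely within both genotypes, with the male-biased list summing to 2132 to 9930.1 CPM in the WT MR mice and 1759 to 8422 CPM in the NRF2 KO MR mice. Of 32 male-biased genes 3 fell, Ugt2b1, Gstp1 and Ces2e, which are also members of the conjugation and esterase lists. The count became 7 with DESeq2, 6 without WT_MR_7609, WT_MR_7615 or KO_MR_7632, and 2 with all 24 mice or the 12 MR mice only. Among all genes 1.38% were called lower and 0.555% higher. The list's median was -0.43, and it ran from -0.75 without KO_MR_7632 to 0.10 without WT_MR_7613. Of 32 female-biased genes, Fitm1 fell and Atp6v0d2, a proton pump subunit, rose. The list's median was 0.45, and it ran from 0.28 without WT_MR_7613 to 0.70 without WT_MR_7615, with 0 to 2 rises called in fits without 1 mouse. Atp6v0d2 was at 2.68 to 7.23 CPM in WT MR and 7.69 to 11.4 CPM in NRF2 KO MR (log2 fold change 1.05, SE 0.26, adjusted p = 0.031), and the call was lost without WT_MR_7611, WT_MR_7613, WT_MR_7616, KO_MR_7625, KO_MR_7627 or KO_MR_7631 (adjusted p up to 0.11) and with all 24 mice (0.97 with adjusted p = 0.11). Of 23 glucose metabolism genes edgeR called 0, 7 had an unadjusted p under 0.05, and DESeq2 called 1 higher and 1 lower (median 0.065; at most 1 higher and 2 lower in the alternative fits).

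The calls among proteasome subunit genes were rises. Of 32 tested, 6 rose and 0 fell, 28 had a log2 fold change above 0, and 9 were separated by genotype in every mouse (median 0.23). Among all genes 0.555% were called higher, 51.1% lay above 0 and 4.6% were separated. The steps were small and the spread narrow: Psmb4, a subunit of the core ring, was at 202, 232, 271, 237 and 259.7 CPM in WT MR and 296 to 357 CPM with a median of 308 in NRF2 KO MR (log2 fold change 0.41, SE 0.092, adjusted p = 0.012). Psma7 rose from a range of 249.5 to 311 CPM to one of 327 to 392 CPM (log2 fold change 0.34, SE 0.074, adjusted p = 0.010), and Psmc3, an ATPase of the regulatory particle, from a range of 139 to 147 CPM to one of 157 to 189.8 CPM (log2 fold change 0.29, SE 0.061, adjusted p = 0.0081). Psmb6, Psmb7 and Psmd4 had log2 fold changes of 0.29 with adjusted p = 0.013, 0.31 with adjusted p = 0.035 and 0.37 with adjusted p = 0.047. The call of Psmb6 was lost without WT_MR_7609 (adjusted p = 0.052), that of Psmb7 without WT_MR_7609, WT_MR_7613, WT_MR_7615, WT_MR_7616, KO_MR_7627, KO_MR_7628, KO_MR_7629 or KO_MR_7631 (up to 0.099), and that of Psmd4, whose groups overlap, in each fit without 1 mouse but the one without KO_MR_7632 (up to 0.12). The count of 6 became 3 without WT_MR_7609, 9 without KO_MR_7632, 10 with DESeq2 or with the 12 MR mice only, and 11 in the fit of the MR groups alone.

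Among cytosolic ribosomal protein genes the calls were falls: all 82 had a log2 fold change below 0, 20 were separated by genotype, 4 fell and 0 rose (median -0.17). Among all genes 1.38% were called lower, 48.9% lay below 0 and 4.6% were separated. Rplp1, a protein of the ribosomal stalk, was at 1408, 1374, 1287, 1217 and 1207 CPM in WT MR and 929 to 1061 CPM with a median of 1007 in NRF2 KO MR (log2 fold change -0.37, SE 0.075, adjusted p = 0.0061). Rpl6 fell (log2 fold change -0.45, SE 0.10, adjusted p = 0.011), as did Rpsa (log2 fold change -0.33, SE 0.075, adjusted p = 0.013) and Rpl32 (log2 fold change -0.34, SE 0.076, adjusted p = 0.012), with the Rpl32 call lost without WT_MR_7609 (adjusted p = 0.051). The count of ribosomal genes called ran from 2 to 18 over the other fits, the list's median stayed between -0.21 and -0.14, and scaling by library size alone lost Rpsa (adjusted p = 0.076) and Rpl32 (adjusted p = 0.091). None of 21 heat shock genes was called in any fit run, by edgeR or DESeq2, and 3 had an unadjusted p under 0.05 (median 0.0094), with Hsp90ab1 at 1517 to 1675 CPM and 1412 to 1643 CPM.

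Of 19 immediate early genes, which are switched on within minutes of a stimulus, 2 rose and 0 fell. The list's median was -0.014, and 0.11 without WT_MR_7609. Among all genes 0.555% were called higher and 1.38% lower. Egr1, a zinc finger transcription factor, had the largest rise of all genes that met the naming rule, from 9.56, 8.10, 9.94, 14.8 and 5.44 CPM in WT MR to 38.3 to 101 CPM with a median of 52.6 in NRF2 KO MR. Every knockout was well above the highest WT mouse (log2 fold change 2.68, SE 0.45, adjusted p = 0.0022). Junb, an AP-1 subunit, rose with overlapping groups, from a range of 18.9 to 31.4 CPM to one of 30.2 to 46.1 CPM (log2 fold change 0.58, SE 0.13, adjusted p = 0.011). Among 24 clock genes Per2, a repressor arm gene, rose (log2 fold change 0.84, SE 0.19, adjusted p = 0.019) and Clock, of the activator arm, fell (log2 fold change -0.36, SE 0.093, adjusted p = 0.041), with a median of 0.23. The list's count of rises became 6 in the fit of the MR groups alone or with the 12 MR mice only and 4 with DESeq2, and 0 genes were called without WT_MR_7613 or WT_MR_7616. The Per2 call was lost without WT_MR_7613 or WT_MR_7616 (adjusted p up to 0.066), and the Clock call without WT_MR_7609, WT_MR_7611, WT_MR_7613, WT_MR_7616, KO_MR_7627, KO_MR_7628, KO_MR_7629 or KO_MR_7632 (up to 0.13) and with all 24 mice (log2 fold change -0.33 with adjusted p = 0.053).

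Of 28 acute phase genes, Mt1, the zinc-binding metallothionein, was the 1 called (median 0.11), beside 0.555% called higher among all genes. DESeq2 called 4 higher, the edgeR fit without KO_MR_7631 called 3, and those without WT_MR_7613, WT_MR_7616, KO_MR_7625 or KO_MR_7629 called 0. Mt1 was at 106, 51.7, 36.05, 86.6 and 63.9 CPM in WT MR and 89.4 to 364 CPM with a median of 190.2 in NRF2 KO MR, with overlap (log2 fold change 1.58, SE 0.36, adjusted p = 0.023). WT_MR_7612 had 451 CPM, more than any knockout, and with all 24 mice the Mt1 call was lost (log2 fold change 0.63 with adjusted p = 0.72). It was also lost without WT_MR_7611, WT_MR_7613, WT_MR_7616, KO_MR_7625 or KO_MR_7629 (adjusted p up to 0.072) and in the fit of the MR groups alone (adjusted p = 0.073). Among 51 interferon-stimulated genes Lgals3bp, a secreted galectin-binding protein, fell from a range of 53.5 to 62.1 CPM to one of 41.97 to 47.4 CPM (log2 fold change -0.37, SE 0.063, adjusted p = 0.0012), and the list's median was 0.025. Lgals3bp was the list's 1 call, beside 1.38% called lower among all genes.

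Besides Gm10639, Gm18635 and Gstp-ps, the largest falls outside these lists that met the naming rule were those of 9130409I23Rik, Mapk15 and Tsku. The RIKEN gene 9130409I23Rik was at 7.24, 13.5, 22.1, 9.34 and 11.2 CPM in WT MR and 0.407 to 0.772 CPM with a median of 0.545 in NRF2 KO MR (log2 fold change -4.50, SE 0.52, adjusted p = 2.4e-05). Mapk15, an atypical MAP kinase, was at 2.79, 7.01, 8.73, 3.77 and 9.76 CPM and 0.392 to 1.31 CPM with a median of 0.957 (log2 fold change -2.87, SE 0.42, adjusted p = 3.3e-04). Tsku, the secreted protein tsukushi, was at 26.6, 13.2, 18.3, 23.8 and 25.2 CPM and 1.24 to 4.43 CPM with a median of 3.42 (log2 fold change -2.67, SE 0.43, adjusted p = 0.0012). All 3 were separated by genotype in the mice compared. The mouse left out, WT_MR_7612, had 0.839 CPM of Mapk15, within the knockouts' range. The neurexin gene Nrxn2 fell from a range of 9.84 to 28.02 CPM to one of 4.14 to 6.15 CPM (log2 fold change -1.66, SE 0.18, adjusted p = 2.2e-06), and WT_MR_7612 had 55.9 CPM of it.

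Besides Egr1 and Nfe2l2, several of the largest rises were of scarce transcripts. Corin, a serine protease, was at 0.730, 0, 0.346, 0.301 and 0.345 CPM in WT MR and 0.882 to 2.89 CPM with a median of 1.80 in NRF2 KO MR (log2 fold change 2.46, SE 0.58, adjusted p = 0.021). Adrb3, an adrenergic receptor, was at 0.133, 0.779, 0.692, 0.301 and 1.47 CPM and 1.76 to 5.56 CPM with a median of 2.31 (log2 fold change 2.00, SE 0.39, adjusted p = 0.0040). These levels rest on few counts, at most 11 for Corin and 17 for Adrb3 in a WT MR library. Med12l (1.81), Mesp2 (1.77), Gm44639 (1.59), Adam11 (1.55), Bhlhb9 (1.54), Zfp867 (1.12) and the cochaperone gene Dnaja4 (1.09) were likewise low, with log2 fold changes as given and no overlap.

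Zbtb16 and Aph1b also rose, with calls that were lost with all 24 mice. Zbtb16, a transcriptional repressor, rose from a range of 2.68 to 3.98 CPM to one of 4.71 to 16.2 CPM (log2 fold change 1.51, SE 0.35, adjusted p = 0.022). Aph1b, a subunit of gamma-secretase, rose from a range of 2.51 to 4.22 CPM to one of 5.41 to 8.06 CPM (log2 fold change 1.13, SE 0.18, adjusted p = 3.9e-04). With all 24 mice Zbtb16 (1.05 with adjusted p = 0.17) and Aph1b (0.77 with adjusted p = 0.075) were not called. Without 1 mouse the calls lost were Corin without WT_MR_7611, WT_MR_7613, WT_MR_7616 or KO_MR_7631 (adjusted p up to 0.065), Med12l without WT_MR_7609, WT_MR_7611 or WT_MR_7613 (up to 0.065), and Zbtb16 without WT_MR_7611, WT_MR_7613, WT_MR_7616 or KO_MR_7629 (up to 0.072).

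On the Con diet the genotype comparison uses other mice, 6 NRF2 KO and 5 WT, and it called 276 of 13336 genes (2.07%), 169 (1.27%) lower and 107 (0.802%) higher. One of its WT libraries, labelled WT_Con_7607, had Nfe2l2 tags at 324 CPM, where the other 4 WT Con mice had 106 to 125 CPM and the knockouts on Con 228 to 339 CPM. In genes looked up after their values were seen it was also at or below the level of those knockouts. Gsta1 was at 0.0722 CPM in it, 1.20 to 8.11 CPM in the other 4 WT Con mice and 0 to 0.272 CPM in the knockouts on Con. Ces1b was at 4.98 CPM in it, against 24.2 to 48.7 CPM and 3.84 to 5.28 CPM, and Ugt2b35 at 18.9 CPM, against 115.5 to 136.7 CPM and 24.7 to 33.4 CPM. Other genes lay elsewhere, with Gstm1 at 439 CPM between the knockouts (at most 365 CPM) and the other WT Con mice (at least 922 CPM), and Gstm3 at 48.8 CPM within the range of those WT mice (21.97 to 177 CPM). Of 184 genes called lower on MR, 77 had the other 4 WT Con mice all above the knockouts on Con. In these the library lay within or below the range of the knockouts for 56, between the genotypes for 13, and within or above the range of the other WT mice for 8. The study's methods state that all genotypes were checked by PCR for hepatic Nfe2l2 mRNA, and whether this label is wrong was not tested here. It was kept in WT Con as labelled, so the Con values and interactions include it unless stated, and those without it are given where the call differs. The SEs and adjusted p of the MR comparison share a spread estimated over all 22 mice, so this library enters them too. MR results without this library alone were not examined. The fit of the MR groups alone, which holds no Con mice, called 249 of the 258 genes. Of the 258 genes called on MR, 72 were called on Con as well, which is 27.9% of the MR calls and 26.1% of the Con calls. Without WT_Con_7607 the Con comparison called 314 of 13441 genes (2.34%), 202 (1.5%) lower and 112 (0.833%) higher, and 98 of the 258 genes were called on Con, which is 38% of the MR calls and 31.2% of those Con calls. Of the 72, 60 were lower on both diets, 11 were higher on both and 1, Junb, was opposite. Of the 98, 85 were lower on both, 12 were higher on both and 1, again Junb, was opposite. With WT_Con_7607 kept, the sign on Con was the same for 224 of the 258 genes (86.8%), and for 59.9% of all genes tested.

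**Figure D4:**
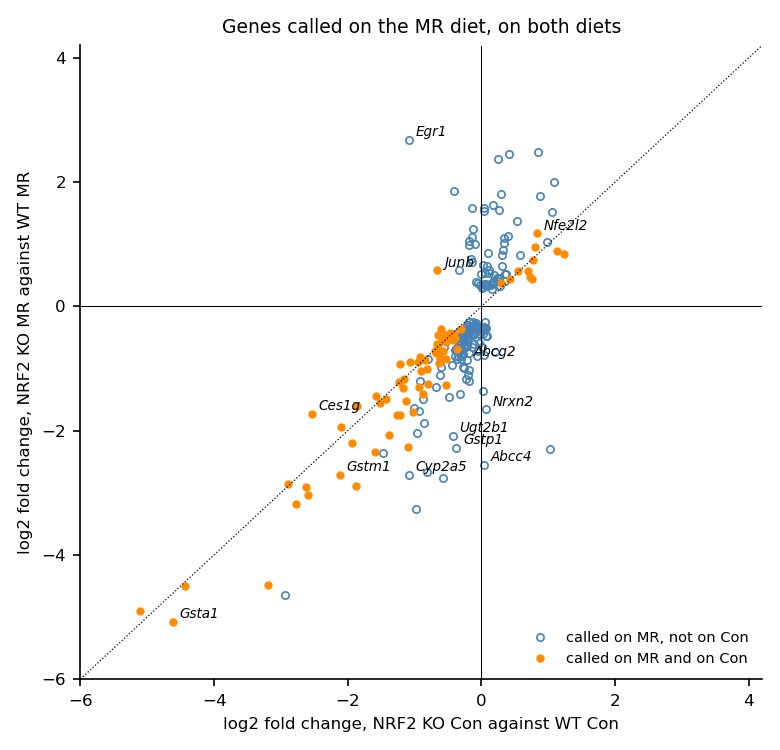
Each point is 1 of the 258 genes called on MR, placed by its log2 fold change in NRF2 KO against WT on Con (horizontal) and on MR (vertical). Orange points were called on both diets, blue circles on MR alone, and the dotted line marks equal change. The Con values include WT_Con_7607. Gsta1 and Gstm1 lie near the line, and Abcc4, Gstp1 and Ugt2b1 lie below it near 0 on the horizontal axis.

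Within the 10 antioxidant and detoxification lists the Con comparison called 25 members lower and 2 higher, and 23 members were lower on both diets. Without WT_Con_7607 the counts were 35 lower, 1 higher and 31 lower on both. The 47 members called lower on MR had a median log2 fold change of -1.21 on MR and -0.52 on Con (-0.65 without WT_Con_7607). Of them 44 were below 0 on Con (45 without WT_Con_7607). With WT_Con_7607 kept, 43 were lower on MR than on Con. Because these 47 were chosen by their MR values, the smaller Con median is a description and no test. Some genes fell on both diets. Gsta1 had a log2 fold change of -5.08 on MR and -4.62 with adjusted p = 0.0049 on Con, Gstm1 -2.71 and -2.12 with adjusted p = 7.3e-05, Nqo1 -1.94 and -2.10 with adjusted p = 0.0020, Aox1 -2.20 and -1.93 with adjusted p = 8.2e-04, and Ces1b -3.18 and -2.77 with adjusted p = 3.1e-04. Ces1g had -1.73 on MR and -2.54 with adjusted p = 7.8e-05 on Con. Others were called on MR alone, among them Ugt2b1 (-2.09 on MR and -0.43 with adjusted p = 0.41 on Con), Gstp1 (-2.28 and -0.37 with adjusted p = 0.79), Tkt (-1.02 and -0.18 with adjusted p = 0.67), Cat (-0.72 and -0.052 with adjusted p = 0.91) and Fth1 (-0.80 and -0.30 with adjusted p = 0.20). Without WT_Con_7607, Fth1 was called on Con as well (-0.41 with adjusted p = 0.014). For none of these 5 did the interaction pass with all 5 WT Con mice (adjusted p 0.064, 0.48, 0.30, 0.30 and 0.41), so a difference between diets was not shown for them. Without WT_Con_7607 the interaction of Ugt2b1 was called (-1.49, SE 0.27, adjusted p = 0.035), and those of the other 4 were not (adjusted p 0.40 to 0.58). Nfe2l2 tags were higher on Con as well (0.83 with adjusted p = 0.045, and 1.27 with adjusted p = 6.4e-09 without WT_Con_7607).

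The interaction, the difference between the genotype effects on MR and on Con, was called for 6 genes (0.045%), while 1008 (7.56%) had an unadjusted p under 0.05 and DESeq2 called 35. Abcc4 was at 2.05 to 3.11 CPM in WT Con and 2.13 to 3.05 CPM in NRF2 KO Con, beside 16.7 to 34.96 CPM and 2.13 to 7.07 CPM on MR. The genotypes overlapped on Con and were apart on MR (interaction -2.60, SE 0.35, adjusted p = 0.0020). Nrxn2 had the same pattern, at 4.79 to 6.72 CPM and 5.33 to 7.04 CPM on Con (interaction -1.73, SE 0.26, adjusted p = 0.0024). Abcg2 was at 59.2 to 81.2 CPM and 55 to 67.6 CPM on Con (interaction -0.65, SE 0.12, adjusted p = 0.023), with the NRF2 KO MR mice below the other 3 groups. The overlap of Abcg2 on Con came from the library labelled WT_Con_7607, at 59.2 CPM. The other 4 WT Con mice, at 69.6 to 81.2 CPM, were all above the knockouts on Con, without a call (log2 fold change -0.28 with adjusted p = 0.066).

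The other 3 interaction genes had a positive interaction value. Junb was lower in NRF2 KO on Con (-0.66 with adjusted p = 0.0045) and higher on MR (0.58), with an interaction of 1.24, SE 0.18, adjusted p = 0.0020. Egr1 had an interaction of 3.77, SE 0.62, adjusted p = 0.023, and on Con 1 WT mouse, WT_Con_7602, stood at 55.3 CPM while the other WT Con mice were at most 17.4 CPM. Rell1 was not called on MR (36.6 to 45.3 CPM and 39.8 to 49.8 CPM, log2 fold change 0.13 with adjusted p = 0.61), and its interaction of 0.72, SE 0.14, adjusted p = 0.041 came with lower levels in NRF2 KO on Con (-0.59 with adjusted p = 9.9e-04). Over the 22 fits without 1 mouse the count of interaction genes ran from 3 without WT_MR_7611 to 12 without WT_Con_7607, with all 6 genes still among those 12. In the fits that called 3 genes, some of the 6 lost their call.

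**Figure D5:**
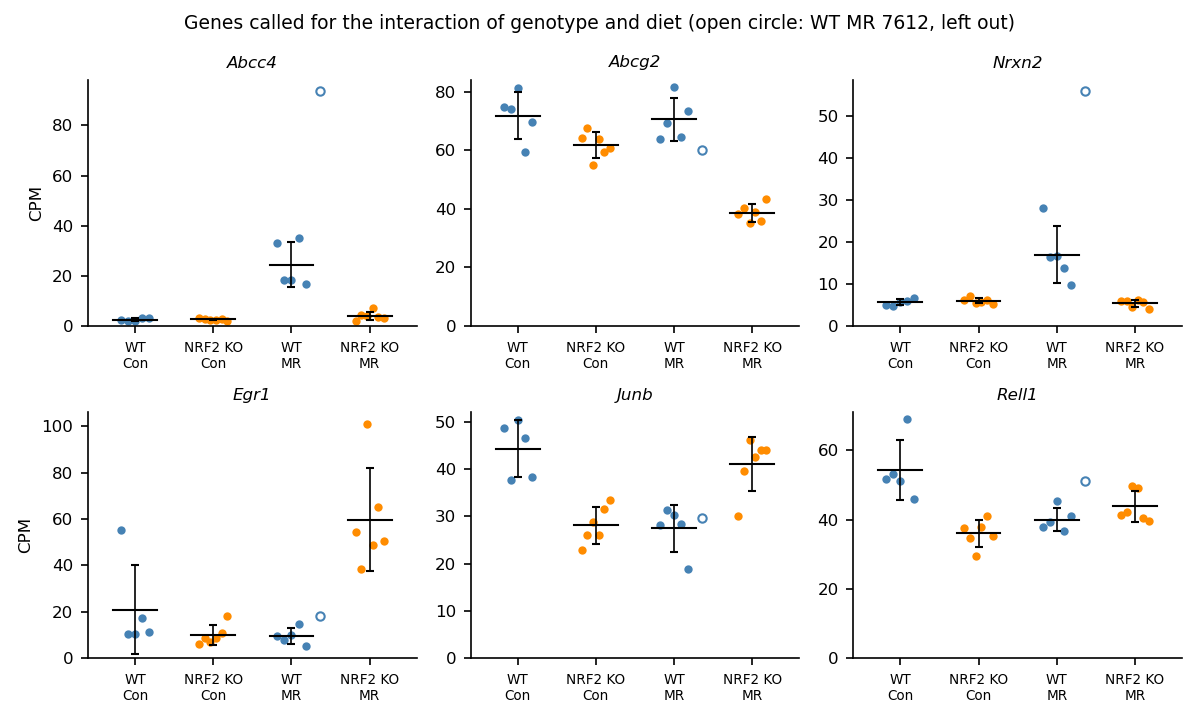
Levels (CPM) of the 6 interaction genes in each mouse of the 4 groups, WT in blue (n = 5 per diet) and NRF2 KO in orange (n = 6 per diet), with means and SD and WT_MR_7612 as an open circle outside the mean. Abcc4 and Nrxn2 are high in WT MR alone, Abcg2 is lowest in NRF2 KO MR, with the lowest WT Con point that of WT_Con_7607, and Egr1 is high in NRF2 KO MR and in 1 WT Con mouse.

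No marker of another cell type that the tissue could hold was called on MR by edgeR. The summed level of 14 Kupffer cell markers was 516 to 577 CPM in WT MR and 500.3 to 638 CPM in NRF2 KO MR. For 15 tested stellate or fibroblast markers it was 492 to 620.2 CPM in WT MR and 561 to 686 CPM in NRF2 KO MR. For 14 endothelial markers it was 492 to 542 CPM in WT MR and 520.4 to 564 CPM in NRF2 KO MR. The most abundant members were Clec4g, which endothelial cells also express, Dcn and Dnase1l3. The median log2 fold changes of these 3 lists were 0.08, 0.14 and 0.089. Bile duct markers summed to 32.8 to 40.2 CPM in the WT MR mice and 30.3 to 49.5 CPM in the NRF2 KO MR mice (most abundant Sox9), B cell markers to 45.8 to 61.03 CPM in the WT MR mice and 46.2 to 74.1 CPM in the NRF2 KO MR mice (Cd74), and T or NK cell markers to 7.78 to 12.1 CPM in the WT MR mice and 8.61 to 13.5 CPM in the NRF2 KO MR mice (Trbc2). Neutrophil markers summed to 6.31 to 7.43 CPM in the WT MR mice and 4.48 to 14.04 CPM in the NRF2 KO MR mice (S100a9), with Ly6g, Mpo, Elane, Camp and Ngp not listed among the counted genes.

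Red blood cell markers, led by Hbb-bs, varied widely in both groups, at 1299.7 to 3186 CPM in the WT MR mice and 1081 to 3058 CPM in the NRF2 KO MR mice. Adipocyte markers summed to 1391 to 3885 CPM in the WT MR mice and 1421 to 7899 CPM in the NRF2 KO MR mice and were led by Car3, which hepatocytes also express, while Retn, Plin1 and Lep were not listed. Pancreatic acinar markers summed to 18.6 to 24.05 CPM in the WT MR mice and 17.6 to 31.1 CPM in the NRF2 KO MR mice, nearly all from Cela1, with Cela2a, Amy2a5 and Cel not listed. Cell cycle genes summed to 39.7 to 46.6 CPM in the WT MR mice and 39.5 to 56.01 CPM in the NRF2 KO MR mice (most abundant Pcna). Pericentral markers, led by Cyp2e1, summed to 3853 to 4659 CPM in the WT MR mice and 3941 to 5712 CPM in the NRF2 KO MR mice, and periportal ones, led by Pck1, to 3854 to 4511 CPM in the WT MR mice and 3629 to 4847 CPM in the NRF2 KO MR mice. Of the 113 markers of these 13 lists tested, edgeR and DESeq2 called 0 on MR and 7 had an unadjusted p under 0.05, while the edgeR fit without WT_MR_7615 called 1 endothelial marker higher, and no listed marker was at 0 in all MR mice.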

How the data were processed

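Liver RNA of 24 male mice was sequenced as QuantSeq 3′ libraries, with 50-base forward reads per the labels, while the study's methods state a longer read. The values used were deposited by the authors as raw counts of reads per gene, made with the mapping and counting pipeline of the kit's maker. The submitters' processing notes name GRCm38/mm10, R 3.4.3 and DESeq2 1.18.1. The deposited table of normalised signal, the counts divided by a size factor per mouse by the authors, was not used here. The table lists 15160 genes, the least abundant with 72 counts over the 24 mice. GENCODE M21 gave symbols for 15119 of them and the positions (GRCm38).

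Differences were tested with edgeR 4.0.16 (R 4.3.3) after TMM normalisation and its filter by expression (13336 genes kept, 1824 removed). A single robust quasi-likelihood fit of 22 mice gave each of the 4 groups its own mean. WT_CON_7604 and WT_MR_7612 were left out after the study. A call was an adjusted p under 0.05 (Benjamini-Hochberg). The SE is the absolute log2 fold change over the square root of F. CPM of the mouse left out come from a normalisation of all 24. Floors are 3 counts per library and cover counting error only. On simulated counts for 13200 genes of the MR comparison, 93 of 100 genes changed by a log2 fold change of 2 and 77 of 100 changed by 1 were recovered, with 10 false calls. Mice are separate animals, and the closest pair of replicates differed by more than sampling noise. Groups were taken from the labels, which give no batch. Promoter words were searched with Python 3.11.15.

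Named genes are NRF2's partners, genes the study measured by PCR, the 15 largest rises and falls among genes called with a mean of at least 1 CPM and no overlap, called list members or, in lists without one, the most abundant member, and the interaction genes. Some genes that met this rule are not reported here. Another 18 genes were chosen after their values were seen: those with TGACTCAGC, the NRF2 targets looked up, and those of the last section. Members and lists were chosen with earlier results of these data known. Alternatives were all 24 mice, other scaling, other filters, fits of the groups compared only, DESeq2 1.42.0 and leaving out each mouse, and, chosen after seeing the data, the 12 MR mice only.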

Additional observations from a re-analysis of the deposited data

Results flagged for a closer look

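Of 250 groups of mice examined for a single distant mouse, 18 held one by Dixon's criterion, where chance gives about 1 in 20. KO_MR_7632 was the distant mouse most often. It had the lowest Txnrd1 of its group (46.0 CPM) and the highest Ces1f (95.1), Gstp1 (13.6), Adrb3 (5.56), Adam11 (5.63) and Tdo2 (937 CPM). WT_MR_7613 had the highest Ugt2b35 (300.1 CPM), Ugt2b1 (438), Gstp1 (51.4) and C1qbp (170.3 CPM) of WT MR. WT_MR_7609 had the highest Atf4 (318 CPM) and Fgf21 (68.5 CPM) and the lowest Fabp1 (3850.2 CPM). Gsta1 was lowest in WT_MR_7615 (8.89 CPM), and Junb in WT_MR_7616 (18.9 CPM). Among the knockouts Gm18635 was highest in KO_MR_7627 (0.849 CPM), and Prdx1 (1307 CPM) and Mat1a (3614 CPM) in KO_MR_7629. The cause of these values was not tested.

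The genotype effect differed between diets by the interaction term for 6 genes, on the log2 scale and with positive values where NRF2 KO against WT was higher on MR than on Con: Abcc4 (-2.60, SE 0.35, adjusted p = 0.0020), Abcg2 (-0.65, SE 0.12, adjusted p = 0.023), Nrxn2 (-1.73, SE 0.26, adjusted p = 0.0024), Egr1 (3.77, SE 0.62, adjusted p = 0.023), Junb (1.24, SE 0.18, adjusted p = 0.0020) and Rell1 (0.72, SE 0.14, adjusted p = 0.041).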

How the results depend on the processing

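The 258 genes called on MR became 600 in a fit of the MR groups only, 496 with DESeq2 and 400 with the 12 MR mice only (chosen after seeing the data), and 191 to 268 without 1 mouse. In these fits the 74 rises became 226, 169 and 152, and 45 to 79 without 1 mouse. The 184 falls became 374, 327 and 248, and 146 to 190 without 1 mouse. The 83 genes called on MR that changed by a log2 fold of 1 or more became 49 when every mouse had to have 10 counts, and 67 to 90 without 1 mouse. The 276 on Con became 99 in a fit of the Con groups only and 451 with DESeq2, and 181 (without WT_Con_7603) to 314 without 1 mouse. The 6 interaction genes became 35 with DESeq2 and 3 to 12 without 1 mouse: 3 without WT_MR_7611, WT_MR_7616, KO_Con_7617, KO_Con_7618 or KO_MR_7625; 10 without WT_Con_7608 or WT_MR_7613; 11 without WT_Con_7605 or KO_MR_7632; and 12 without WT_Con_7607. Size factors, library-size scaling, no filter and all 24 mice left the MR count at 259, 243, 259 and 250.

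Of 124 genes named, 100 were called on MR, 72 of them in every alternative run and 83 in every fit without 1 mouse. The fit of 12 MR mice lost 12 of them, 9 of which were also lost with all 24 mice or in the fit of the MR groups only; the other 3 were Fitm1, Zfp867 and Tdo2 (adjusted p 0.051, 0.059 and 0.059). Genes that changed sign were not called on MR: with all 24 mice, G6pdx (-0.050), Hmox1 (-0.23) and Sod2 (0.019); with 12 MR mice only, -0.059, -0.23 and 0.020; with library size only, Sod2 (0.0084); and without 1 mouse, Sod2 (-0.048 to 0.0073), Fgf21 (-0.58 to 0.38), Mat1a (-0.097 to 0.013) and Cyp4a14 (-0.083 to 0.15). The cause of these shifts was not tested. No paired analysis was possible because the numbers in the labels are mouse numbers that no 2 groups share. The shallowest library, of 6197291 counts in WT MR, limits genes near 1 CPM most.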

Other observations

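Some further genes called lower in NRF2 KO MR lie outside the lists. They were chosen singly after their values were seen and stand for no group. Tdo2, which opens the tryptophan ring in the first step of its breakdown, was at 821, 1102, 1717, 969.8 and 1352 CPM in WT MR and 345 to 937 CPM with a median of 477 in NRF2 KO MR, with 1 knockout inside the WT range (log2 fold change -1.17, SE 0.24, adjusted p = 0.010). Etnppl, which degrades phosphoethanolamine, was at 120.4, 192, 296, 133 and 219.8 CPM and 42.7 to 86.6 CPM with a median of 76.7, without overlap (log2 fold change -1.46, SE 0.29, adjusted p = 0.0071). Ddc, which makes dopamine and serotonin from their precursor amino acids, fell from a range of 51.9 to 105 CPM to one of 26.9 to 44.2 CPM (log2 fold change -0.92, SE 0.22, adjusted p = 0.029), a call lost without WT_MR_7611, WT_MR_7613, WT_MR_7616, KO_MR_7625, KO_MR_7627 or KO_MR_7628 (adjusted p up to 0.096). Gch1, of tetrahydrobiopterin synthesis, fell from a range of 310.5 to 449.97 CPM to one of 203 to 256 CPM (log2 fold change -0.62, SE 0.13, adjusted p = 0.0088). On Con, Ddc was called lower as well (-1.22 with adjusted p = 0.0049), and Tdo2, Etnppl and Gch1 were not.

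A receptor gene and a gene of a secreted protein were among them too. Adora1, an adenosine receptor, was at 60.5, 56.5, 87.3, 49.1 and 61.04 CPM in WT MR and 9.88 to 24.8 CPM with a median of 15.97 in NRF2 KO MR, without overlap (log2 fold change -1.87, SE 0.30, adjusted p = 0.0012). Creg1, a secreted glycoprotein, was at 1552, 1578, 1672, 1499 and 1659 CPM and 777 to 1037 CPM with a median of 897, with little spread in either group (log2 fold change -0.83, SE 0.10, adjusted p = 8.9e-06), and it was called lower on Con as well (-0.62 with adjusted p = 7.3e-04).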
